A study of Mus musculus with 5 samples.

Results

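The epidermal differentiation complex is a cluster of genes that skin switches on as keratinocytes mature and build the cornified envelope, the cross-linked protein shell of the outermost skin cells. Loricrin (Lor), involucrin (Ivl) and the small proline-rich proteins (Sprr) are glued into this shell by transglutaminases, filaggrin (Flg) bundles keratin filaments inside it, and the S100 genes at the ends of the cluster encode small calcium-binding proteins that many cell types use. Heart muscle is not a tissue that cornifies, although Sprr1a is also known as a stress gene of injured heart muscle and nerve. Crct1, a cysteine-rich gene of the same cluster, was the starting point here: the group of Crct1, Sprr1a, Sprr1b, Lor, Ivl and Flg was selected on the large difference in Crct1 signal between grafts with and without cold storage. For this reason the differences between groups for these genes are given as a description, with no test.

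Of the 6 genes, 5 have a probe set that carries their symbol alone in the platform annotation, out of 21789 such probe sets on the array. None in that annotation carries the symbol of Flg alone, so Flg was not analysed here. The samples were 5 heart grafts of C57BL/6 mice, with 1 Mouse Gene ST array each: 3 from donor hearts kept 18 h in University of Wisconsin solution at 4 °C before implantation (I/R), and 2 from hearts implanted without that storage (non-I/R). The protocol label mentions the storage for all 5 grafts, so the groups follow the description of each sample's source. All grafts were syngeneic, no genetic change was made, and the mice had been bought at 8 weeks of age. Every graft was sewn into the abdomen of a recipient, so both groups share surgery and some ischemia, and the labels give harvest 24 h after transplantation, while the account of the experiment places it on day 2. Nothing in the labels names a batch or says which animals the grafts share, so the spread between grafts is the only error available.

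Signals are RMA values on the log2 scale, so a difference of 1 is 2-fold, and they cannot be compared between probe sets as amounts of RNA. The arrays carry no detection call. As a guide to signals without expression, 1035 probe sets of olfactory receptors, which heart muscle is not known to use in quantity, had 5th and 95th percentiles of 3.25 and 5.89. Heart muscle was plainly present: 10 of 10 cardiomyocyte markers, such as Tnnt2, Myh6 and Actc1, had signals of 10.65 or more in every graft. The overall distance between arrays (rms difference over all probe sets) was largest for I/R 2 and non-I/R 1, at 0.488, and I/R 1 lay nearer to non-I/R 2 (0.252) than to I/R 2 (0.303). Grafts are numbered here in the order of deposit, and the numbers pair nothing.

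Crct1 had signals of 8.22, 8.49 and 9.37 in the I/R grafts, against 5.46 and 6.08 in the non-I/R grafts. The groups did not overlap, and the lowest I/R graft lay 2.14 above the highest non-I/R graft. The means were 8.69 ± 0.61 in I/R (SD, n = 3) and 5.77 ± 0.44 in non-I/R grafts (SD, n = 2), a difference of 2.93 (SE 0.45) on the log2 scale or 7.6-fold. In rank, this was place 1 among the rises of all 21789 probe sets, and it is the value for which the group was picked. The non-I/R signals lay near the upper edge of the olfactory receptor range, 1 inside and 1 above it, and all 3 I/R signals lay well above it. The non-I/R mean is thus not shown to be above background, and with each non-I/R signal raised to at least the upper olfactory percentile of its own array the difference was 2.69, or at least 6.47-fold. With 1 graft left out at a time the difference ran between 2.59 and 3.24.

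Sprr1a, which encodes a precursor of the cornified envelope and is induced in cardiomyocytes by cytokines of the interleukin-6 family, was the other gene with a large difference. Its signals were 11.96, 12.29 and 12.46 in the I/R grafts, against 10.67 and 11.64 in the non-I/R grafts. All I/R grafts were above both non-I/R grafts, by 0.32 at the closest. Means of 12.24 ± 0.25 in I/R (SD, n = 3) and 11.16 ± 0.69 in non-I/R grafts (SD, n = 2) gave a difference of 1.08 (SE 0.36), or 2.11-fold, at place 99 among all rises. It had a bright signal in every graft, 5.91 above the upper olfactory percentile on average. The size of its difference depended on non-I/R 1: without that graft it was 0.59, and without non-I/R 2 it was 1.57.

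**Figure D1:**
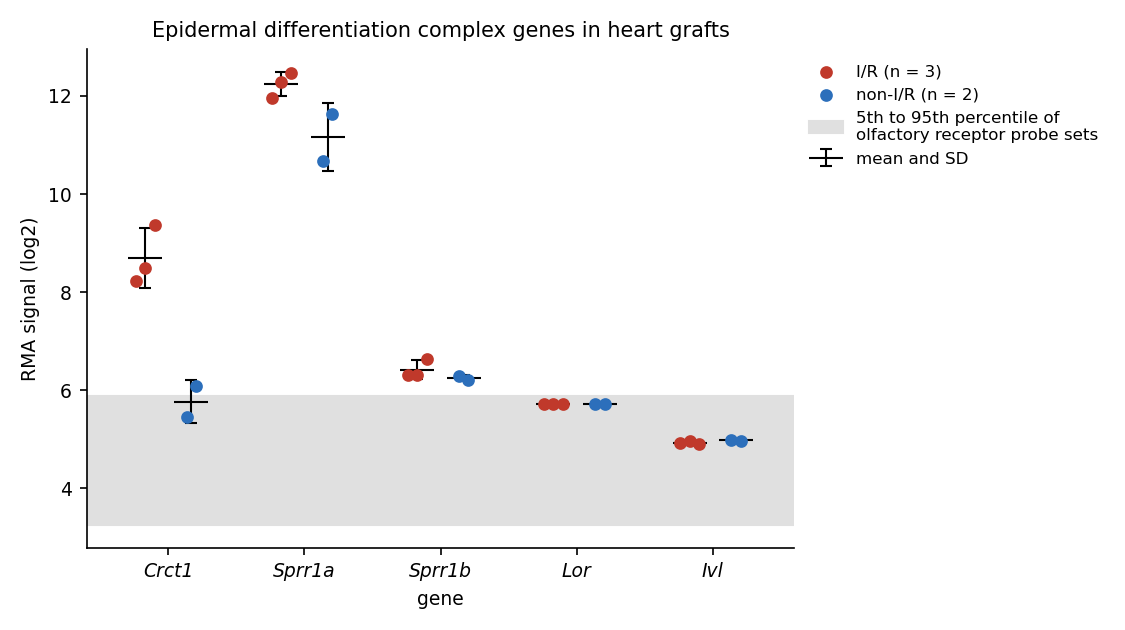
RMA signal (log2, y axis) of 5 genes of the epidermal differentiation complex (x axis) in each heart graft, red for I/R (n = 3) and blue for non-I/R (n = 2), with mean and SD in black and the 5th to 95th percentile of olfactory receptor probe sets (means over the 5 arrays) in grey. Crct1 stands at 8.22 to 9.37 in I/R and 5.46 to 6.08 in non-I/R grafts, Sprr1a is bright in every graft, and Lor and Ivl lie flat inside the grey band.

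Sprr1b, the nearest relative of Sprr1a and separated from it in the gene table by Sprr3 alone, showed little of this. Its signals were 6.31, 6.31 and 6.64 in the I/R grafts, against 6.30 and 6.21 in the non-I/R grafts. Although these groups do not overlap either, the gap was 0.01, and the difference of 0.16 (SE 0.13) rested mostly on I/R 3. Ivl, an early protein of the envelope, had signals of 4.92, 4.96 and 4.90 in the I/R grafts, against 4.99 and 4.96 in the non-I/R grafts, so the groups overlapped and the difference was -0.05 (SE 0.030). Lor, the main protein of the finished envelope, had the same value of 5.73 on all 5 arrays. Such exact ties occurred in 3.47% of all probe sets, so the Lor value carries no information on a difference between grafts. Both Lor and Ivl lay within the olfactory receptor range. Among all probe sets tested, 44.0% had a higher mean in I/R grafts and 15.8% had every I/R graft above both non-I/R grafts, as 3 of the 5 genes here did on each count, and 0.597% were at least 2-fold higher, as 2 of the 5 were. Since this contrast chose the group, nothing is read from these counts.

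The promoter windows of these genes, which run from 250 bases before the start of the transcript to 50 after it, were searched for the binding motif of AP-1, the Fos and Jun factors that drive many genes of this cluster in skin. The motif letters were TGANTCA, which read the same on both strands. N is any base, so the search was looser than with the usual C or G at that place, in all windows alike. Windows were found for Sprr1a, Sprr1b, Lor, Ivl and Flg, and none for Crct1. All 5 held at least 1 match, against 7.81% of all 32851 windows, and Sprr1a held 2, where 0.46% of all windows held 2 or more. Of the other measured genes of the complex, Sprr2k, with the same value on all 5 arrays, and S100a11 (difference 0.55) also held 2. In Sprr1a both matches read TGAGTCA and began 146 and 116 bases before the start. The windows of 3 genes are shown, in the direction of transcription with the AP-1 matches in capitals, because they belong to a gene with a higher signal in I/R grafts (Sprr1a), its relative with a small difference (Sprr1b) and an envelope gene with 1 value on all arrays (Lor). They are RefSeq sequence of the build GRCm38.p6, on the minus strand at chr3:92485832-92486131, chr3:92438730-92439029 and chr3:92083093-92083392 in this order.
Sprr1a: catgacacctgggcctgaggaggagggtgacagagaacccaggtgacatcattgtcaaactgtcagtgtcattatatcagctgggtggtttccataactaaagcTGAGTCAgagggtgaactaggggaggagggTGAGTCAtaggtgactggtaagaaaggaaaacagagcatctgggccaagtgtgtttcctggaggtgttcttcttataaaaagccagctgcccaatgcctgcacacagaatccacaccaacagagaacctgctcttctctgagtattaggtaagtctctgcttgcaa
Sprr1b: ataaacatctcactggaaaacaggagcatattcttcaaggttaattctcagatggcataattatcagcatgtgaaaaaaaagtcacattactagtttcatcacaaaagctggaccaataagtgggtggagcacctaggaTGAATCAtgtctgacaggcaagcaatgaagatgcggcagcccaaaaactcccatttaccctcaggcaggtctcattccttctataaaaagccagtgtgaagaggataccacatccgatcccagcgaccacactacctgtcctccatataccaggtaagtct
Lor: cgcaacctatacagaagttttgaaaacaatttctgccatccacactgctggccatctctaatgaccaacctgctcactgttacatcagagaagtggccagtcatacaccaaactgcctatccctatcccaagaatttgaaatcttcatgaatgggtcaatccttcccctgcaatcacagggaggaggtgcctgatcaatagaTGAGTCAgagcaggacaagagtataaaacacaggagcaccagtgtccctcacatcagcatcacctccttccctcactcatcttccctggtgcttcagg
The single match of Sprr1b reads TGAATCA, 111 bases before the start, and that of Lor reads TGAGTCA, 48 bases before it. Ivl holds TGACTCA 116 bases before its start and Flg holds TGAATCA 103 bases before its start. At the free base the matches of Sprr1b and Flg thus have A, and those of Sprr1a, Lor and Ivl have C or G. The letters TATAAA, searched on both strands, were also found once in each of these 5 windows, against 13.6% of all windows, between 27 and 53 bases before the start. Across the measured genes of the complex, 18 of 52 with a window held an AP-1 match (34.6%), against 8.97% of all genes with a window. By family these were 9 of 11 Sprr genes, 0 of 18 Lce genes, 2 of 11 S100 genes and 7 of 12 others, among them Lor and Ivl. The Sprr2 genes are recent copies of each other, so their matches are not separate observations.

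The rest of the complex was then described to see how far the rise of Crct1 was shared by the genes around it. The gene table places 70 protein-coding genes on chromosome 3 from S100a1 to S100a10, and 60 of them had a probe set of their own. Together with 2 transcribed pseudogenes, 57 measured genes remained besides the 5 above. By limma, 5 of the 57 were higher in the I/R grafts at an unadjusted p under 0.05 and 3 were lower, beside 7.64% and 7.35% of all 21789 probe sets. No gene of the 57 and no probe set on the array passed an adjusted p of 0.05 by limma (2 probe sets on the array did by the methods' unmoderated test), and the median difference was -0.01 over the 57 genes and -0.01 over all probe sets. All 5 higher genes belonged to the S100 family. Leaving out I/R 1 or non-I/R 1 brought the count of higher genes to 2, leaving out I/R 2 or I/R 3 brought it to 3, as did the methods' unmoderated test, and the count without non-I/R 2 was within 1.5 times the full one.

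Outside the S100 family, the complex was close to flat. Of 43 such genes none was higher at an unadjusted p under 0.05 and 2 were lower, beside 7.64% and 7.35% of all probe sets. The 43 differences ran between -0.22 and 0.14 with a median of -0.02. Signals of 38 of the 43 averaged at or below the upper olfactory percentile. The neighbours of Crct1 are the late cornified envelope genes Lce3f and Lce1m. Lce3f had signals of 4.14, 4.11 and 4.14 in the I/R grafts, against 4.48 and 4.14 in the non-I/R grafts, so it overlapped between groups, and Lce1m was not analysed here. Of 19 measured Lce genes, which encode late envelope proteins, 1 was lower. Lce1h had signals of 6.60, 6.71 and 6.68 in I/R, against 6.81 and 6.79 in non-I/R grafts. Its difference of -0.14 (SE 0.041, unadjusted p = 0.0273, adjusted p = 0.296 by limma) did not pass without I/R 3. It was -0.13 without non-I/R 1 and -0.15 without non-I/R 2. Lce1h was also lost with the filter on dim probe sets, which removes dim genes before the test. Of 10 other Sprr genes in the list, Sprr4 was lower, with 6.43 in all 3 I/R and 6.55 in both non-I/R grafts. Its difference of -0.12 (SE 0.018, unadjusted p = 0.00285, adjusted p = 0.282 by limma) no longer passed after quantile normalization or median centring. Sprr4 was lost with the same filter on dim probe sets, which is not a failed test. The widest range of any of the 43 over the grafts was that of Sprr2b, with 4.33, 5.24 and 4.16 in I/R and 4.03 and 5.01 in non-I/R grafts, which overlap. None of the 6 measured S100 fused-type genes, the family of filaggrin, passed: cornulin (Crnn) had a difference of -0.16 (SE 0.10), trichohyalin (Tchh) of 0.06 (SE 0.041) and hornerin (Hrnr) of -0.05 (SE 0.040).

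**Figure D2:**
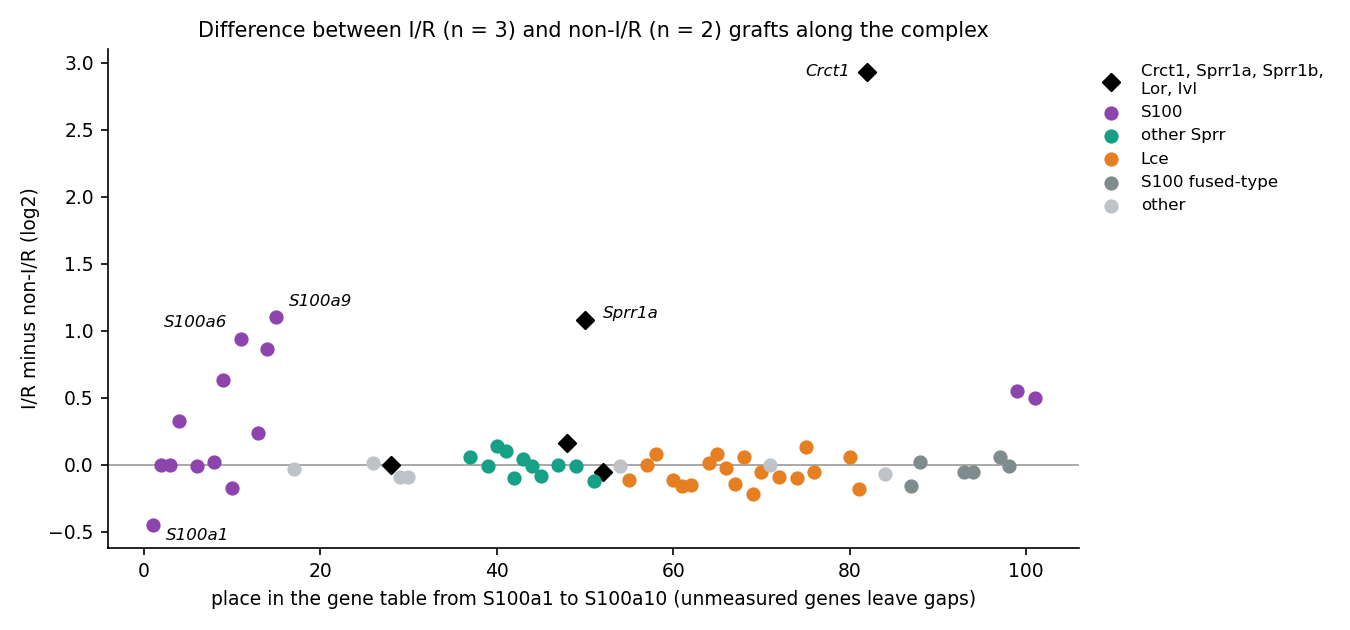
Log2 difference, I/R minus non-I/R (y axis, 3 and 2 grafts), for each measured gene of the complex, in the order of the gene table from S100a1 to S100a10 (x axis), coloured by family, with the 5 genes of the group as black diamonds. Crct1 at 2.93 and Sprr1a at 1.08 stand apart from the Sprr, Lce and S100 fused-type genes around them, which lie between -0.22 and 0.14, while the S100 genes at both ends spread between -0.45 and 1.10.

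The S100 genes at both ends of the complex varied more. Of 14 measured, 5 were higher and 1 was lower in the I/R grafts at an unadjusted p under 0.05. Over all probe sets these shares were 7.64% and 7.35%. The median difference was 0.28 over the 14 and -0.01 over all probe sets. S100a6 (calcyclin), a protein of proliferating and stressed cells, had signals of 9.71, 10.05 and 9.83 in the I/R grafts, against 8.86 and 8.97 in the non-I/R grafts. That difference of 0.94 (SE 0.12, unadjusted p = 0.00184, adjusted p = 0.282 by limma) passed the unadjusted threshold with any 1 graft left out. S100a10, the partner of annexin A2, had 12.48, 12.23 and 12.54 in I/R, against 11.84 and 11.99 in non-I/R grafts, and a difference of 0.50 (SE 0.12, unadjusted p = 0.0142, adjusted p = 0.285 by limma). S100a11, a protein of membrane repair, had 12.19, 12.53 and 12.31 in I/R, against 11.68 and 11.91 in non-I/R grafts, and a difference of 0.55 (SE 0.14, unadjusted p = 0.0181, adjusted p = 0.286 by limma), with 0.54 from its second probe set. In all 3 of these genes every I/R graft lay above both non-I/R grafts, as in 15.8% of all probe sets.

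The other S100 genes that passed were S100a4, S100a8 and S100a1. S100a4, found in motile and fibroblast-like cells, had a difference of 0.63 (SE 0.20, unadjusted p = 0.0356, adjusted p = 0.311 by limma). For the neutrophil protein S100a8 it was 0.86 (SE 0.28, unadjusted p = 0.0415, adjusted p = 0.319 by limma). S100a1, the S100 protein of heart muscle that enhances calcium cycling, was the one that was lower, with 12.08, 11.94 and 12.32 in I/R, against 12.60 and 12.52 in non-I/R grafts, and a difference of -0.45 (SE 0.13, unadjusted p = 0.0289, adjusted p = 0.299 by limma). S100a1, S100a4 and S100a8 did not pass by the methods' unmoderated test, or with I/R 1 or I/R 2 left out. S100a8 did not pass without I/R 3 either. S100a9, the partner of S100a8, did not pass, with 10.28, 11.71 and 10.63 in I/R and 9.37 and 10.18 in non-I/R grafts. Without non-I/R 1, S100a6 was the one of these 6 genes that still passed. The remaining 7 genes had differences between -0.17 and 0.33. These S100 differences stood beside shifts of neutrophil and cardiomyocyte markers, and the part of those shifts in the S100 values was not tested. The mean signal of 10 neutrophil markers, which include S100a8 and S100a9, was 9.13 to 9.80 in I/R and 8.46 to 8.71 in non-I/R grafts, and that of 10 cardiomyocyte markers was 12.14 to 12.41 in I/R and 12.82 or more in both non-I/R grafts. Other marker lists shifted less: the median difference was -0.25 for 8 fibroblast, 0.025 for 8 macrophage and 0.12 for 8 endothelial markers. The fibroblast markers, named here because of S100a4, ran between -0.82 and 0.38. In whole tissue, fewer cells of a type and less RNA per cell cannot be told apart.

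**Figure D3:**
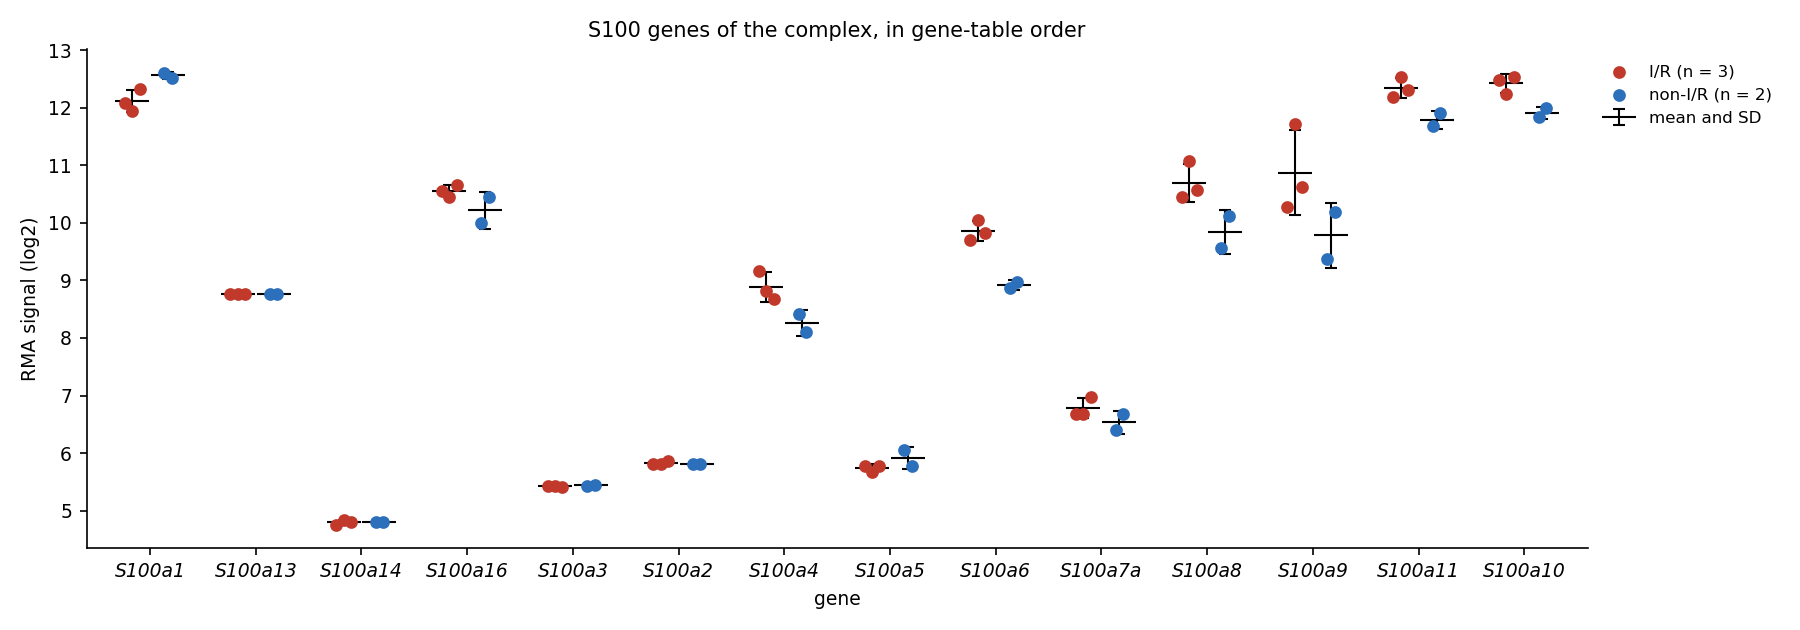
RMA signal (log2, y axis) of the 14 measured S100 genes of the complex (x axis, in gene-table order) in each heart graft, red for I/R (n = 3) and blue for non-I/R (n = 2), with black bars for mean and SD. Every I/R graft lies above both non-I/R grafts for S100a4, S100a6, S100a8, S100a9, S100a10 and S100a11 and below both for S100a1. Of all probe sets, 15.8% had every I/R graft above and 16.2% had every I/R graft below.

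Keratinocyte markers were examined because the complex is normally active in keratinocytes. None of 18 measured markers passed an unadjusted p of 0.05 by limma, beside 7.64% (higher) and 7.35% (lower) of all probe sets. The differences of the markers ran between -0.18 and 0.11 with a median of -0.02. Their mean signal was 5.39 to 5.49 in the I/R grafts and 5.46 to 5.49 in the non-I/R grafts, so the groups overlapped. The smallest p was that of keratin 5 (Krt5), with 5.85, 5.72 and 5.90 in I/R and 5.91 and 6.09 in non-I/R grafts (unadjusted p = 0.113, adjusted p = 0.433 by limma). Keratin 14 (Krt14), keratin 1 (Krt1), Dsg3 and Dsc3 each had 1 value on all 5 arrays, so these 4 could not pass. Such ties occurred in 3.47% of all probe sets. Of the 18 markers, 8 averaged above the upper olfactory percentile. The keratinocyte master regulator Trp63 differed by -0.06 (SE 0.038) and the hemidesmosome collagen Col17a1 by -0.07 (SE 0.050). Mesothelial and simple epithelial markers, listed because the grafts lay in the peritoneal cavity, gave the same count: 0 of 13 passed, with differences between -0.29 and 0.18.

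A list called envelope assembly here holds 20 genes outside the complex that serve the cornified layer, and not all of them build the envelope itself. Of these, 2 were higher and 1 was lower, beside 7.64% and 7.35% of all probe sets, and the median was 0.00. Stratifin (Sfn), a 14-3-3 protein of epithelial cells and a p53 target, had signals of 8.75, 8.07 and 9.07 in the I/R grafts, against 6.60 and 7.36 in the non-I/R grafts. Its difference of 1.65 (SE 0.42, unadjusted p = 0.0183, adjusted p = 0.286 by limma), with 1.28 from a dimmer probe set, met the 2-fold criterion of the study, which 0.496% of all probe sets met in this direction. Asprv1, a protease that processes filaggrin, had 8.18, 8.76 and 8.46 in I/R, against 7.80 and 7.69 in non-I/R grafts, and a difference of 0.72 (SE 0.19). Neither gene overlapped between groups, and 15.8% of all probe sets had every I/R graft above both non-I/R grafts. The lipid transporter Abca12 was lower, with 5.10, 5.06 and 5.18 in I/R, against 5.87 and 5.42 in non-I/R grafts, all inside the olfactory receptor range, so that neither group is shown to be above background. Its difference of -0.53 was -0.31 without non-I/R 1. The enzymes that cross-link the envelope, Tgm1, Tgm3 and Tgm5, had differences of 0.12, 0.01 and 0.00, and none of them passed. Over these genes and the keratinocyte markers in one count, 2 were higher, but 0 when I/R 3 was left out. Sfn did not pass without I/R 1 or without I/R 3, and Asprv1 did not pass without I/R 3. With non-I/R 1 left out, the differences of Sfn and Asprv1 were 1.27 and 0.78, and without non-I/R 2 they were 2.03 and 0.67. These fits leave 1 non-I/R graft, so only the differences are given, and whether the genes held there is not stated. The same count of lower genes, 1 with all grafts, was 0 when I/R 1 or I/R 2 was left out. Abca12 did not pass without I/R 3 either.

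Of 24 measured factors known to regulate the complex in skin, 3 were higher and 2 were lower at an unadjusted p under 0.05, beside 7.64% and 7.35% of all probe sets, with a median of 0.06. The 3 higher factors were the AP-1 subunits Fosl1, Jun and Fosl2, and the other listed AP-1 subunits did not pass: Fos had a difference of 0.54 (SE 0.21), Fosb of 0.41 (SE 0.25), Junb of 0.37 (SE 0.24) and Jund of 0.12 (SE 0.12). Fosl1 had 9.28, 10.37 and 10.40 in the I/R grafts, against 7.33 and 7.80 in the non-I/R grafts, a difference of 2.45 (SE 0.45, unadjusted p = 0.00625, adjusted p = 0.282 by limma). Jun had 10.15, 10.20 and 10.20 in I/R, against 9.72 and 9.85 in non-I/R grafts, and a difference of 0.40 (SE 0.048), and Fosl2 also had 0.40 (SE 0.12). The homeodomain protein Hopx was lower at -0.73 (SE 0.18) and the epidermal factor Zfp750 at -0.17 (SE 0.045). Zfp750 had 5.77, 5.75 and 5.82 in I/R, against 5.99 and 5.90 in non-I/R grafts. These signals lay close to the upper olfactory percentile of 5.89, so Zfp750 is not clearly shown to be above background. It did not pass without I/R 1 or I/R 2. Klf4, another factor of terminal skin differentiation, did not pass, with a difference of -0.24 (SE 0.12). Grhl3 had the same value on all arrays, which carries no information on a difference. Jun passed with any 1 graft left out, while Fosl1 (difference 2.22) did not pass without non-I/R 1 and Fosl2, with 1 graft left out, passed only when that graft was I/R 1. The count of lower factors was 0 without non-I/R 1, 1 without I/R 1 and 4 after quantile normalization or median centring. Along the interleukin-6 family pathway named above for Sprr1a, 2 of 16 measured genes were higher and 1 was lower, beside the same 7.64% and 7.35% of all probe sets. Clcf1, a cytokine of this family, had 8.95, 8.76 and 9.22 in I/R, against 7.15 and 8.30 in non-I/R grafts (difference 1.25, SE 0.41, but 0.68 without non-I/R 1). The receptor Il6ra was also higher, at 0.54 (SE 0.19), and Stat3, the transcription factor of the pathway, was lower, at -0.21 (SE 0.053), while the shared receptor Il6st differed by 0.04 (SE 0.026) and Il6 by 0.09 (SE 0.37). All I/R grafts lay above both non-I/R grafts for 3 of the 16 and below for 4 (15.8% and 16.2% of all probe sets). The 4 include Lifr (difference -0.73, SE 0.28) and Ctf1 (-0.55, SE 0.23), which did not pass. With 1 I/R graft left out, Clcf1 never passed, Il6ra passed only without I/R 2, and Stat3 did not pass without I/R 3. Without non-I/R 1 the differences of Il6ra and Stat3 were 0.60 and -0.16. Without non-I/R 2, those of Clcf1, Il6ra and Stat3 were 1.82, 0.48 and -0.25. Only differences are given where 1 non-I/R graft was left.

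**Figure D4:**
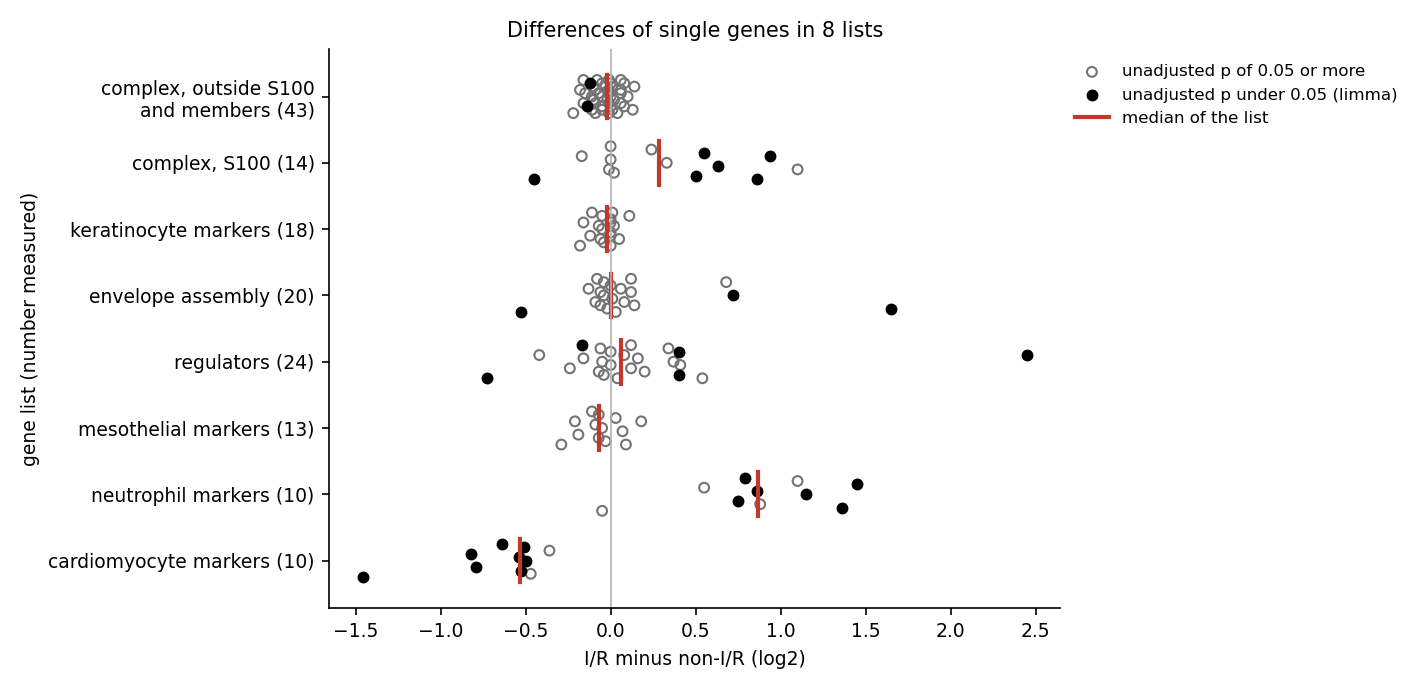
Log2 difference, I/R minus non-I/R (x axis, 3 and 2 grafts), for single genes of 8 lists (y axis, number measured in parentheses), filled where the unadjusted p by limma was under 0.05, with the median of each list as a red bar. Genes of the complex outside the S100 family other than the 5 of the group (which are not plotted), keratinocyte markers and mesothelial markers lie within -0.29 and 0.18, while neutrophil markers have a median of 0.87 and cardiomyocyte markers of -0.53.

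The genes whose pattern over the 5 grafts was most like that of Crct1 were found by the rms difference of signals centred on each gene's own mean, a measure that takes in both shape and size. The nearest was the polo-like kinase Plk2 at 0.29, with 10.25, 10.80 and 11.13 in the I/R grafts, against 7.91 and 8.63 in the non-I/R grafts. Fosl1 followed at 0.386, the lysyl oxidase Loxl4 at 0.467, Plcxd2 at 0.59 and the peptide hormone apelin (Apln) at 0.62. All of these were higher in every I/R graft than in both non-I/R grafts, which likeness to Crct1 favours by construction. Sprr1a was farther from Crct1, at 0.945, and Sprr1b, Lor and Ivl lay at 1.40 to 1.52.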

How the data were processed

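RNA from 5 heart grafts was measured on Mouse Gene 1.0 ST arrays. Per the labels, the authors used Partek and RMA, whose versions are not given in the sources used here, and deposited log2 values for 35556 probe sets. No genome build is named for them. Since RMA brings the probe intensities of all arrays to a common distribution before summarizing them, a shift common to most genes could be lost. The deposited values themselves still differed slightly, with medians between 6.577 (I/R 1) and 6.652 (I/R 2). Names came from the annotation of the platform, and symbols were brought up to date by gene ID from a GRCm38.p6 table (21698 of 21789 IDs found). Probe sets with several symbols (1621) or none listed (12146) were left out of the tests. For a gene with several probe sets the brightest was used; those of Socs3 differed in sign. The deposited log2 values were compared by moderated tests in limma 3.58.1 (R 4.3.3; functions lmFit, eBayes; 3 against 2 arrays, Benjamini-Hochberg over 21789 probe sets), with 757 probe sets equal on all arrays kept in. The steps were tested on simulated data. Array number limits the precision: an exact permutation test of 3 against 2 cannot go below p = 0.1.

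The members and lists were chosen with earlier results of these data known. Genes named are the 6 members, list genes at 2-fold with an unadjusted p under 0.05 or else those with the smallest p, and the 5 genes most like Crct1. Others, among them S100a1, S100a4, S100a8, S100a9, Lce3f, Sprr2b, the Tgm genes, Il6, Il6st, Lifr, Ctf1 and the genes at a single value, were chosen after their values were seen. Alternatives were other eBayes settings, the methods' ANOVA (for 2 groups, an unmoderated test with equal variances), array weights, 2 normalizations, a filter on dim probe sets, all probe sets and leaving out each graft. Leaving out tied probe sets was added after seeing the data. Python 3.11.15 and matplotlib 3.10.9 made the plots.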

Additional observations from a re-analysis of the deposited data

How the results depend on the processing

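The Crct1 difference moved by less than the SD between replicates under all 13 alternatives. That of Sprr1a did so under 11, and ran between 0.59 and 1.57 with 1 graft left out. With 1 graft left out, the genes of the complex past the unadjusted threshold numbered 2 to 7 higher and 2 to 4 lower, the regulators 2 to 4 higher and 0 to 3 lower, and the keratinocyte and envelope assembly genes 0 to 2 higher and 0 to 6 lower. Over all probe sets the counts ran between 1014 and 1813 higher and between 884 and 2334 lower. The methods' unmoderated test (ANOVA) gave 3 higher genes of the complex, 0 lower envelope or keratinocyte genes, and 1029 higher and 985 lower probe sets in all, of which 2 passed an adjusted p of 0.05. With only the brighter probe sets tested, 1 gene of the complex and 0 envelope or keratinocyte genes were lower, since dim genes were removed. Quantile normalization and median centring each gave 4 lower regulators. The causes of the other changes were not tested. Of the 8 genes of the complex that passed, 8 remained without tied probe sets and 2 without non-I/R 1. No paired analysis was possible because the labels give no replicate numbers.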

Other observations

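Probe sets that carry several gene symbols were outside every count above, among them those of the Sprr2a genes. A probe set annotated to Sprr2a1, Sprr2a2, Sprr2a3 and Sprr2b together had signals of 9.30, 8.42 and 8.86 in the I/R grafts, against 8.79 and 9.11 in the non-I/R grafts, a difference of -0.09. Both probe sets annotated to Sprr2a1 and Sprr2a3 had 8.10, 7.05 and 7.64 in I/R and 7.56 and 7.87 in non-I/R grafts. The groups overlapped in all of these, the lowest value was in I/R 2 each time, and the signals cannot be assigned to a single gene. A probe set shared by 6 Lce3 genes had 7.69, 7.92 and 7.85 in I/R and 7.94 and 7.93 in non-I/R grafts.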
